A study of Homo sapiens with 6 samples.

Results

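Of the 41656 rows in the deposited RNA-seq table, 13978 carried no gene name, and 2783 of these were short and abundant. A row was included when its locus spanned at most 2000 bases and the larger of its pooled values, siNT or siPAX9, was at least 100 FPKM (fragments scaled to locus length and to the number of mapped fragments). MCF10A, an established non-tumorigenic human breast epithelial cell line, had been transfected with 30 nM of a non-targeting siRNA (siNT, 3 samples) or with siRNA against the paired-box transcription factor PAX9 (siPAX9, 3 samples) for 72 hours, and poly(A)+ libraries were sequenced. The authors deposited 1 pooled FPKM per group, so that no value has a replicate error, the table gives no read total per sample and no difference was tested. The loci were thus selected on the pooled FPKM values of both groups, and changes are therefore given as a description, as log2(siPAX9/siNT), with 2-fold used to count loci as lower or higher.

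Markers fixed for the cell line were looked up among the named rows. The basal keratins KRT5 (1558 FPKM in siNT and 1807 in siPAX9) and KRT17 (1718 and 2088) were abundant, KRT14 (31.4 and 40.9), TP63 (35.4 and 25.3), EGFR (64.3 and 58.1), ITGB4 (147 and 128) and CDH1 (45.3 and 124) were present, whereas the leukocyte gene PTPRC stood at 0.0166 and 0.0922 FPKM, and CD3E was listed at 0 in both groups. Of the luminal, endothelial and fibroblast markers, MUC1 stood at 88.2 and 176 FPKM, PECAM1 at 2.58 and 0.495 and COL1A1 at 0.454 and 4.13, with ESR1, VWF and PDGFRB lower still. The PAX9 row was 2.80 FPKM in siNT and 0.325 in siPAX9. Summed over all rows, FPKM came to 4427650 in siNT and 3869430 in siPAX9, of which the 2783 loci held 85.3% and 85.7%.

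The human genome holds many copies of expressed genes. Processed pseudogenes arise when a messenger RNA is reverse transcribed and inserted elsewhere, so that they lack the introns of their source and often end in a run of A. They are most numerous for short, highly expressed transcripts such as those of ribosomal proteins. Fragments of ribosomal RNA, of the mitochondrial genome and of small nuclear RNAs are scattered over the chromosomes in a similar way. A read that crosses an exon junction of an mRNA matches the intronless copy without a gap, whereas in the source gene the same bases are split by an intron.

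The sequences below show what kinds of loci these were. They were read from the GRCh37 reference, which has the coordinates of hg19, and each is given 5′ to 3′ on the strand that matches its source where one was found. The first set comes from loci that matched the mRNA of a ribosomal protein or translation factor. Capitals mark the 5 bases on each side of the place where 2 exons of the source are joined.
RPL5 match, chr11:56124840-56124944, + strand: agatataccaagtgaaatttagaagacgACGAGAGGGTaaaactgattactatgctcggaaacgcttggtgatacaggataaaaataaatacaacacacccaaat
RPS14 match, chr7:131350404-131350497, + strand: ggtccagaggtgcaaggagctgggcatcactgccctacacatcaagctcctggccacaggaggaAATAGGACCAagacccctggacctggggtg
RPL3 match, chrX:121672537-121672634, + strand: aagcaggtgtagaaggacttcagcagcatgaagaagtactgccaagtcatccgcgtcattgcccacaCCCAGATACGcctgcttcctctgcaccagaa
RPL12 match, chr19:46722901-46722987, + strand: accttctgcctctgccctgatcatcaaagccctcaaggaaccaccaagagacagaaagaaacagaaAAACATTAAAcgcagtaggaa
RPSA match, chr15:53178236-53178321, + strand: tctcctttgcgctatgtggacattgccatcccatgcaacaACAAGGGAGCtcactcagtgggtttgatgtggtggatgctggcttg
EEF1A1 match, chr4:135966705-135966827, + strand: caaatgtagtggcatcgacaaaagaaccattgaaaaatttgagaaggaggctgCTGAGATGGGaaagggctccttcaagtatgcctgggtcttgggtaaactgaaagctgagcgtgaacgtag

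The second set, with capitals as in the first, comes from other mRNAs: the mitochondrial chaperonin HSPD1, the splicing factor HNRNPA1, the nucleolar protein NPM1 and the glycolytic enzyme PKM. They are shown because the first 3 were lower and the last one higher in siPAX9.
HSPD1 match, chr12:8170226-8170326, - strand: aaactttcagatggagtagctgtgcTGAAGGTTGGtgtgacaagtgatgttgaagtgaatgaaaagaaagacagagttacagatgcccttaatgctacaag
HNRNPA1 match, chr9:4945735-4945827, - strand: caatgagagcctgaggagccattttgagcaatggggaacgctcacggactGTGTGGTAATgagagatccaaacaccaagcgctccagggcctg
NPM1 match, chr15:92829081-92829185, + strand: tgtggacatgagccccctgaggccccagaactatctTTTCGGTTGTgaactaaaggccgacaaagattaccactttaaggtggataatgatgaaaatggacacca
PKM match, chr1:115079385-115079519, + strand: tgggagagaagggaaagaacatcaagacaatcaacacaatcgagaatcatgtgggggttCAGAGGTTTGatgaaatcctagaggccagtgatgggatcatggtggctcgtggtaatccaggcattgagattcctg

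The third set holds noncoding sources, all in lower case because no part is singled out. The first 3 rRNA loci lie on the 28S side of the repeat and the fourth on the 18S side.
rRNA match, 28S side, chr6:120583435-120583542, + strand: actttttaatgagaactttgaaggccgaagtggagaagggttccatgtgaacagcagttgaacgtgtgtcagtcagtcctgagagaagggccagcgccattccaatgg
rRNA match, 28S side, chrY:3005049-3005150, + strand: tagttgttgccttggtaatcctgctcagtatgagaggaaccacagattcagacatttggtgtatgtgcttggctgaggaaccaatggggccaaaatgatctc
rRNA match, 28S side, chr12:127650854-127651005, - strand: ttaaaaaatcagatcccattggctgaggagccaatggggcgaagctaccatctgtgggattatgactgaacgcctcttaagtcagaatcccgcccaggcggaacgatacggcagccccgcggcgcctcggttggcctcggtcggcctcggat
rRNA match, 18S side, chr11:45848195-45848300, - strand: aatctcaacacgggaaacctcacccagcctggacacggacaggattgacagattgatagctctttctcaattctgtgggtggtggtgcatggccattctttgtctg
Mitochondrial match, chr7:45291561-45291708, + strand: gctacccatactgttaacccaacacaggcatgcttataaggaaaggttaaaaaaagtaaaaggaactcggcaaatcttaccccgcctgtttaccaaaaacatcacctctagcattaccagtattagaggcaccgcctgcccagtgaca
RNU1-1 match, chr1:17222516-17222617, + strand: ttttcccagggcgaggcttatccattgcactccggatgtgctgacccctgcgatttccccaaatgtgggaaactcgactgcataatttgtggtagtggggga
RNU1-1 match, chr14:35025456-35025554, - strand: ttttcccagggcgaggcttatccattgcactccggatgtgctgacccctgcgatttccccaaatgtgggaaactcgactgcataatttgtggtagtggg

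The last set shows loci with no assigned source, both among those with the highest siPAX9 level relative to siNT, in lower case throughout.
Locus listed at 0 in siNT, chrX:57823150-57823225, + strand: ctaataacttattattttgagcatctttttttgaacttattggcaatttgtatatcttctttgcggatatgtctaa
Locus higher in siPAX9, chr15:56365186-56365296, + strand: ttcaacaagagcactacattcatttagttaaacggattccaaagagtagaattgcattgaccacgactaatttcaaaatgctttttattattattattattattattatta

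The loci were short. Their lengths ran from 76 to 1934 bases with a median of 119, and 1985 of 2783 (71.3%) spanned at most 150 bases. Length and level were tied: all 10 short unnamed loci of up to 76 bases and all 814 of 77 to 100 bases reached 100 FPKM, as did 1161 of 1264 (91.9%) of over 100 and up to 150 bases, but only 149 of 6074 (2.45%) of 501 to 2000 bases. The median larger FPKM was 932 at 77 to 100 bases and 233 at 501 to 2000 bases. FPKM divides by length, so a locus close to the length of a read reaches a high value from few fragments, and the table does not give the number of fragments behind each value.

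A source was assigned by sequence search to 1961 loci (70.5%), at an identity of at least 90% over at least 80% of the bases outside A and T runs. Messenger RNAs of 838 protein-coding genes were the best match of 1872 loci (67.3%), with a median identity of 96.3%. The source gene lay on another chromosome for 1735 of these 1872 loci (92.7%). The mRNA sources comprised 296 loci of cytoplasmic ribosomal proteins, 66 of translation initiation and elongation factors, 19 of actins and tubulins, 4 of histones and 1487 of other proteins. Noncoding sources were the ribosomal RNA repeat (16 loci), the mitochondrial genome (5), small noncoding RNAs (9) and other noncoding transcripts (59). A further 134 loci matched over 100 places in the genome and were set apart as repeated sequence, 249 were rich in A or T runs, with under 40 bases or under 60% of their bases left outside runs of 15 or more, 437 had no match at these limits, and 2 on the Y chromosome (-0.68 and -0.46) were not searched because the reference used here gives only N there.

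Loci matched to mRNAs tended to sit across exon junctions of their source. Among the 1850 loci that matched a spliced mRNA from another place, 1424 (77.0%) contained at least 1 junction, whereas on average 43.7% of all windows of the same lengths in the same transcripts did. For ribosomal protein sources the junction share was 89.5% (265 of 296 loci) beside 69.1% of windows. The pattern was sharpest at over 100 and up to 150 bases, where 616 of 803 loci held a junction beside 35.6% of windows, and the junction lay a median of 6.75 bases from the centre of the locus. In 394 of these 616 loci (64.0%) it lay within 10 bases of the centre. The 1616 mRNA-matched short unnamed loci below 100 FPKM also held junctions more often than their windows, in 78.6% beside 50.1%. Over all lengths the junction lay a median of 16 bases from the centre in the abundant loci and 34 bases in these, which were longer (a median of 558 bases for all short unnamed loci below 100 FPKM). At over 100 and up to 150 bases, where only 24 of the less abundant loci held a junction, the medians were 6.75 and 25 bases.

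**Figure D1:**
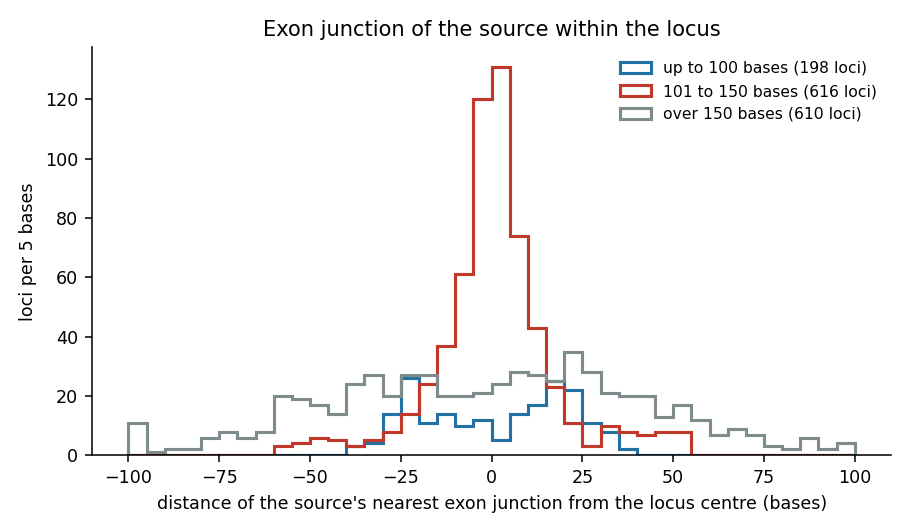
Distance in bases of the nearest exon junction of the source mRNA from the centre of each locus (horizontal axis) and the number of loci per 5 bases (vertical axis), by locus length, with distances beyond 100 drawn in the end bins. The 616 loci of over 100 and up to 150 bases pile up at the centre, with a median distance of 6.75 bases, while for the 198 loci of 77 to 100 bases the median distance was 18.5 bases.

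Against the annotation, 1865 of 2783 loci (67.0%) overlapped an exon of an annotated pseudogene, 633 (22.7%) were intergenic, 56 lay in introns of protein-coding genes and 176 in other introns. Of the rest, 19 overlapped an exon of a protein-coding gene and 34 a noncoding exon. Each locus was counted in a single category, so a locus counted under pseudogene exons may also overlap another exon. Pseudogene exons covered 291 of the 296 ribosomal protein loci, and also 302 of the 437 loci without a match. Of the 10189 short unnamed loci below 100 FPKM, 2042 (20.0%) overlapped a pseudogene exon and 3680 (36.1%) were intergenic.

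In siPAX9 the loci were on balance lower than in siNT. The median log2 change was -0.44, with quartiles of -0.92 and 0.11, and 1977 of the 2774 loci with at least 0.01 FPKM in both groups were below 0. By 2-fold or more, 615 loci (22.1%) were lower, where 19.9% of all rows with at least 100 FPKM were lower, and 208 (7.47%) were higher, where 7.33% of all such rows were. Among all rows with at least 1 FPKM, 9.5% were 2-fold lower and 17% 2-fold higher. The loci described here make up most of the rows at 100 FPKM or more, and the 709 named rows with at least 100 FPKM were 2-fold lower in 11.3% and 2-fold higher in 6.77%, with a median of -0.36. Many loci share a source, and with each of 892 source genes counted once, by the median of its loci, 12.7% were 2-fold lower and the median was -0.29. The median pooled level of the loci was 456 FPKM in siNT and 327 in siPAX9. Short unnamed loci with 1 to under 100 FPKM had a median of 0.39, with 9.44% lower and 34.5% higher, so the direction of the median differed on the other side of the level limit.

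**Figure D2:**
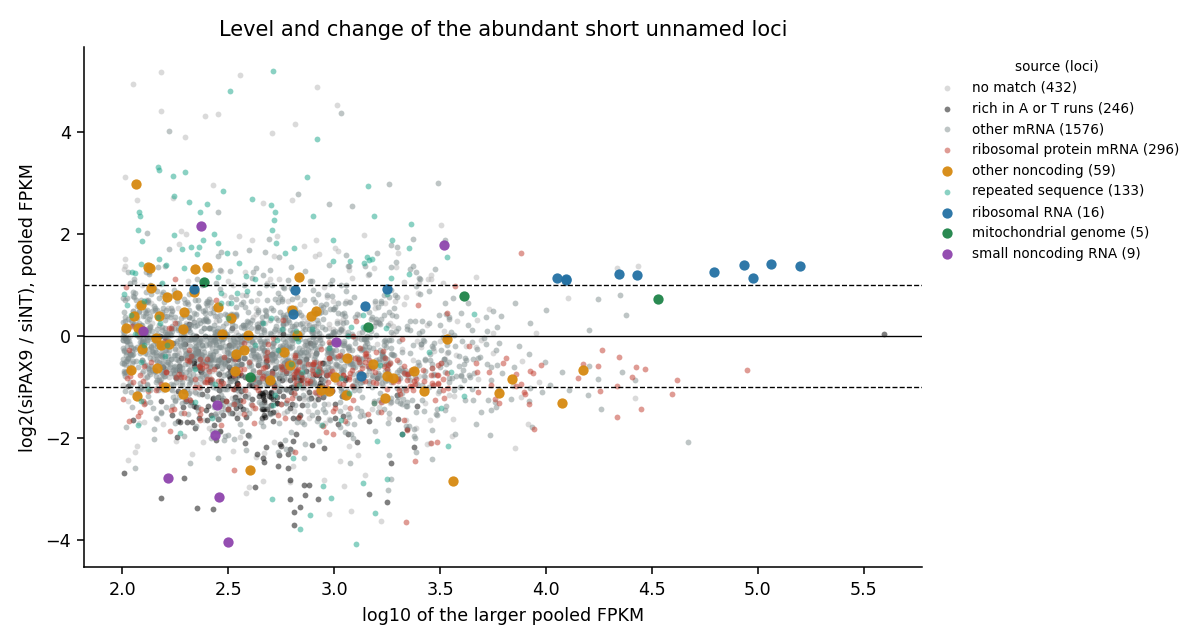
Level of each locus as log10 of the larger pooled FPKM (horizontal axis) and change as log2(siPAX9/siNT) (vertical axis), coloured by source, for the 2774 loci with a fold, with dashed lines at 2-fold; translation factors, histones, actins and tubulins are drawn as other mRNA. The rRNA-matched loci reach 157404 FPKM and stand mostly above the upper dashed line, and the ribosomal protein loci lie mostly below 0.

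The median change by source was -0.80 for ribosomal protein loci, -0.82 for translation factor loci, -0.28 for other protein-coding loci, 1.12 for rRNA loci, 0.72 for mitochondrial loci and -1.17 for loci rich in A or T runs. These medians are descriptions of loci that share sources and may share reads, and no difference between them was tested.

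**Figure D3:**
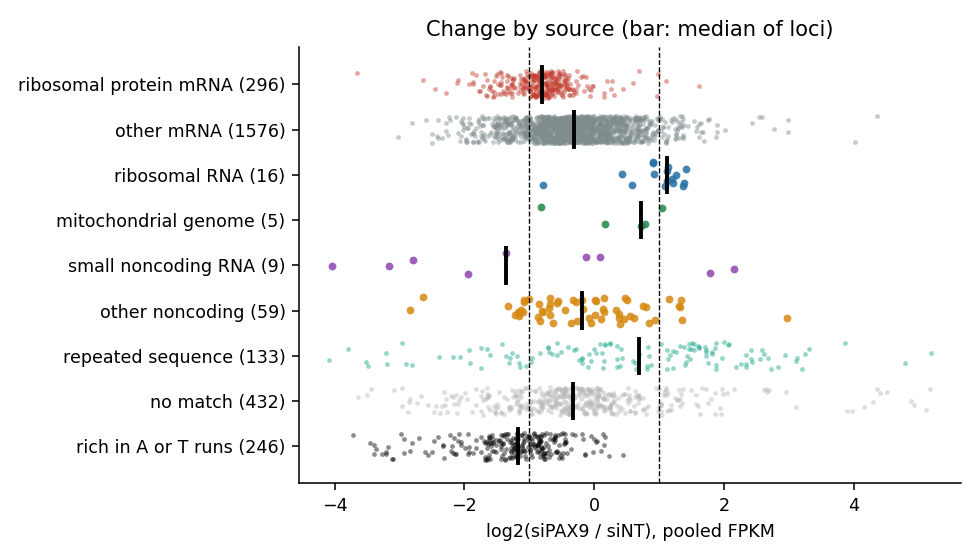
Change of each locus as log2(siPAX9/siNT) (horizontal axis) by source (rows, with the number of loci), with black bars at the medians and dashed lines at 2-fold. Points are spread vertically for legibility. The rRNA row centres at 1.12, right of 0, and the ribosomal protein row at -0.80, left of 0.

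Ribosomal proteins form the small and large subunits around the rRNAs. Their 296 loci came from 80 genes, grouped by symbol. The group includes the related symbols RPL36AL (2 loci) and RPL7L1 (3 loci, median -0.04), while RPSA2 (2 loci) was counted among other proteins. Of the 296 loci, 283 were below 0, with 87 (29.4%) lower and 2 higher by 2-fold. Small-subunit sources accounted for 105 loci with a median of -0.85, of which 32 were 2-fold lower, and large-subunit sources for 191 loci with a median of -0.80, of which 55 were 2-fold lower. Of the 85 cytoplasmic ribosomal protein genes with a named row at 0.01 FPKM or more in both groups, 80 had at least 1 such locus. The named rows of those 80 genes had a median of -0.75, and 14 were 2-fold lower and 0 were 2-fold higher.

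The most abundant ribosomal protein locus, chr2:88728061-88728156, matched RPL38, a large-subunit protein, at 90.5% identity in the annotated pseudogene RPL38P6. It stood at 88798 FPKM in siNT and 55773 in siPAX9, a log2 change of -0.67, while the named RPL38 row was at 647 and 408 FPKM (-0.66). The locus printed above for RPL5, which binds 5S rRNA, lies in RPL5P29 and was at 41625 and 22806 FPKM (-0.87), and the RPL5 row had -1.07. The RPS14 locus was at 39149 and 17761 FPKM (-1.14), and the RPS14 row, at 2128 and 1211 FPKM, had -0.81.

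Of the 81 genes with at least 5 loci, RPL3 and RPL12, both of the large subunit, were the 2 with every locus 2-fold lower. The RPL3 locus printed above was at 28150 and 10394 FPKM (-1.44), and all 6 loci of RPL3 were 2-fold lower, from -1.76 to -1.25. All 9 loci of RPL12 were 2-fold lower as well, from -1.88 to -1.33, with the printed one at 21561 and 7128 FPKM. The named rows stood at -1.74 for RPL3 and -1.60 for RPL12. For RPSA, the laminin-receptor-like protein of the small subunit, 12 of 16 loci were 2-fold lower, with a median of -1.15 beside -1.15 for the row.

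Small-subunit genes were also looked up by name. RPS6 had 6 loci from -1.34 to -0.95 beside -1.24 for its row (4241 and 1801 FPKM), and RPS9 had 3 loci from -1.34 to -1.29 beside -1.45. RPS28 had 1 locus, chr11:82400580-82400970 in the annotated RPS28P7, which matched at 99.7% identity and carries an A run of 26 bases. It was at 2189 FPKM in siNT and 175 in siPAX9 (-3.65), and the RPS28 row, at 98.6 and 6.23 FPKM, stood at -3.98. FBL, the rRNA methyltransferase fibrillarin, was the source of 0 loci.

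Initiation and elongation factors load and move ribosomes along mRNA. The 48 initiation factor loci had a median of -0.82, with 21 (43.8%) lower and 3 (6.25%) higher by 2-fold. The 18 elongation factor loci also had -0.82, with 3 (16.7%) lower and 1 (5.56%) higher. Among all rows with at least 100 FPKM, 19.9% were lower and 7.33% higher. EEF1A1, which delivers aminoacyl-tRNA to the ribosome, had 14 loci. The most abundant of them, chr4:133449246-133449371, was at 26360 and 14435 FPKM (-0.87), and chr15:53230472-53230620 at 15997 and 10554 (-0.60), while the row of the gene stood at -0.80. All 14 ran from -2.06 to 1.10, with 3 lower and 1 higher by 2-fold. EIF4A2, an RNA helicase of initiation, had 2 of 4 loci 2-fold higher, with a median of 0.51 beside -0.26 for its row. EIF4B, a helicase cofactor in initiation, had 11 of 14 loci 2-fold lower, with a median of -1.08 beside -1.29 for its row. EIF3L had all 4 of its loci 2-fold lower, with a median of -1.96 beside -1.83 for its row. EIF4B and EIF3L thus gave most of the 21 lower initiation factor loci.

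Among other mRNA sources, 213 of 1487 loci (14.3%) were 2-fold lower and 56 (3.77%) 2-fold higher. KRT18, a keratin of simple epithelia, had the most loci of any gene, 18, with a median of -0.80 beside -0.83 for its row. NPM1 had 15 of 17 loci 2-fold lower, with a median of -1.45 beside -1.44, and HNRNPA1 had 11 of 12, with -1.50 beside -1.39. Other sources with at least 12 loci had smaller shares. HSPA8 had 7 of 13 loci 2-fold lower and ST13 had 3 of 13 (median -0.75). ASS1 had 1 of 15 (median -0.38) and FKBP4 had 0 of 12 (median -0.08). The chromatin protein HMGN2 had 9 of 10 loci 2-fold lower, with a median of -1.49 beside -1.37. HSPD1 had 14 loci with a median of -0.70 beside -0.45, and its most abundant locus was at 22730 FPKM in siNT and 13956 in siPAX9.

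The metallothionein MT2A, a metal-binding protein, was the source of the eighth most abundant locus. Located at chr4:69241999-69242246 in the annotated MT2P1, it was at 46918 FPKM in siNT and 10998 in siPAX9 (-2.09), and the MT2A row itself was at 16426 and 3901 FPKM (-2.07).

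Actins and tubulins build the cytoskeleton, and of their 19 loci 1 was lower and 2 were higher by 2-fold. The most abundant, chrX:44654052-44654171, matched ACTB and was at 7048 and 8397 FPKM (0.25), followed by an ACTG1 match at chr11:1824914-1825004 with 6195 and 3746 FPKM (-0.73) and an ACTG2 match at chrY:19868996-19869097 with 4901 and 3676 (-0.41). The last match had 90.2% identity, the place is annotated as ACTG1P2, and the ACTG2 row itself was listed at 0 in siNT and at 0.0371 FPKM in siPAX9. All 3 of the most abundant histone loci matched the replication-independent histone gene H3-3A, at 1.11, -0.46 and -0.27, beside -0.32 for its row.

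Some mRNA sources had loci that were higher in siPAX9. All 10 loci of YWHAZ, a 14-3-3 adaptor, lay between 0.19 and 0.72 beside 0.46 for its row, and all 8 of FTH1, the ferritin heavy chain, between 0.39 and 0.80 beside 0.51. The most abundant FTH1 locus, chr14:66367520-66367626, was at 17935 and 23815 FPKM. PKM had 9 loci from 0.20 to 1.25, and KRT8, the partner keratin of KRT18, had 11 from -0.02 to 0.98. Larger differences belonged to AKR1B1, an aldose reductase with 3 loci from 1.13 to 2.99 beside 1.16, and to the small heat shock protein HSPB1, with 2 loci at 1.34 and 1.65 beside 1.51. The matrix glycoprotein FN1 had 2 loci on the X chromosome. The first, chrX:80937690-80937775, was at 52.3 and 1073 FPKM (4.36), and its neighbour chrX:80937915-80938051 at 10.2 and 166 FPKM (4.02), while the FN1 row went from 0.588 to 25.2 FPKM (5.42). These last genes, AKR1B1, HSPB1 and FN1, were picked with their values in view.

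Setting each locus beside the named row of its source gave 1819 pairs from 802 genes. The median change was -0.42 at the loci and -0.45 at the rows, the median difference of locus minus row was 0.05, with quartiles of -0.15 and 0.26, and 1724 pairs (94.8%) differed by less than or equal to 2-fold. Both values had the same sign in 1542 pairs (84.8%). Of 257 loci whose source row was 2-fold lower, 188 were 2-fold lower themselves, and of 17 whose source row was 2-fold higher, 14 were. Across loci, Pearson's r was 0.77 and Spearman's rho 0.77 (n = 1819), and across genes, with each gene given by the median of its loci, r was 0.79 and rho 0.78 (n = 802). These correlations are across features of the same libraries, and reads may be shared between a locus and its source. The level in siNT was higher at the locus than at the row in 1502 pairs (82.6%), with a median ratio of 6.51 over all pairs. The loci had been selected for at least 100 FPKM and the rows had not, so this comparison favours the loci. The share was 54.4% for ribosomal protein pairs (median ratio 1.19) and 88.0% for other mRNA sources (8.53). Whether reads at a locus came from the copy or from its source was not tested. Among all abundant short unnamed loci, 49 lay on the Y chromosome. Of these, 19 had an mRNA source, and for all 19 the source gene lay on another chromosome. Whether these cells carry a Y chromosome was not tested. A value at such a locus therefore does not show that the Y copy was transcribed.

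**Figure D4:**
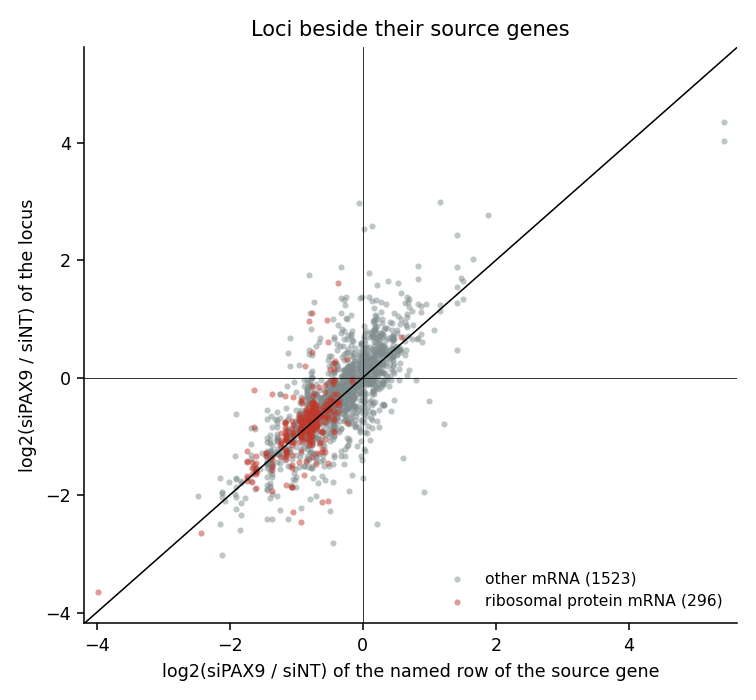
Change of the named row of the source gene (horizontal axis) and of the locus (vertical axis), both as log2(siPAX9/siNT) of pooled FPKM, for 1819 pairs, with the diagonal marking equal change. Points of ribosomal protein loci cluster along the diagonal below 0 on both axes, and 94.8% of all pairs lie within 2-fold of it.

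The loci of 1 gene mostly lay on the same side of 0. Of 375 genes with at least 2 loci, 199 had every locus below 0, 55 had every locus above 0 and 121 had loci on either side, and the span between the lowest and highest locus had a median of 0.56 in log2 units. Among the 81 genes with at least 5 loci, 33 had loci on either side of 0 and the median span was 1.16. Another 463 genes had 1 locus each. A difference of over 2-fold from the source row was seen in 95 pairs of 84 genes, 38 with the locus lower and 57 with the locus higher. The largest were chr1:108048176-108048258, matched to the respiratory chain protein NDUFA4, at 231 and 1821 FPKM (2.98) beside -0.06 for the row, and chr5:132445439-132445552, matched to C15orf40, at 5425 and 1399 FPKM (-1.96) beside 0.92. The C15orf40 match had 92.4% identity, 40 genome places and an A or T run of 19 bases, and the C15orf40 row was at 4.75 and 9.01 FPKM.

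Ribosomal RNA, transcribed by RNA polymerase I from a tandem repeat in which 5.8S lies between 18S and 28S, gave the second, the third and the fourth most abundant loci. The 16 loci that matched the repeat held 6.57% of the summed FPKM of the 2783 loci in siNT and 18.3% in siPAX9. Of these, 10 were 2-fold higher, 0 were 2-fold lower and 15 were above 0. The locus chr6:120583435-120583542 was at 60644 FPKM in siNT and 157404 in siPAX9 (1.38). Those at chrY:3005049-3005150, chr19:24184068-24184205, chrX:88735818-88735916 and chr12:127650854-127651005 had changes of 1.41, 1.12, 1.39 and 1.26.

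The rRNA matches were placed relative to 5.8S on the scaffold that carries the repeat. The 9 loci that matched downstream, on the 28S side, had a median of 1.20 and ran from 1.09 to 1.41, all of them 2-fold higher. The only one below 0, chrY:10037748-10037923, matched over 5.8S itself and overlaps the annotated 5.8S pseudogene RNA5-8SP6, at 1335 and 775 FPKM (-0.78). The 6 loci upstream, on the 18S side, had a median of 0.90 and ran from 0.43 to 1.21, with 1 of them 2-fold higher. The difference between the sides was not tested. The libraries were selected for poly(A), and the share of rRNA in each library cannot be read from pooled values.

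Mitochondrial sequence in the nuclear genome was represented by 5 loci. The most abundant, chr7:45291561-45291708, was at 20504 and 33804 FPKM (0.72), and chr13:110076468-110076724 at 2400 and 4116 FPKM (0.78). The other 3 stood at 0.16, -0.82 and 1.05.

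Small noncoding RNAs split by kind. The 4 loci identical to RNU1-1, the RNA of the U1 spliceosomal particle, were all 2-fold lower. The locus chr1:17222516-17222617, in the annotated RNU1-2, was at 316 FPKM in siNT and 19.2 in siPAX9 (-4.04), and those at chr14:35025456-35025554, chr1:147511027-147511134 and chr1:16993302-16993400 had changes of -3.16, -2.78 and -1.94. Each of the 4 matched 25 places in the genome. Both loci that matched BCYRN1, a cytoplasmic RNA related to Alu elements, were higher, the first at 959 and 3304 FPKM (1.78) and chr18:64289325-64289485 at 52.4 and 234 FPKM (2.16). RN7SL2, an RNA of the signal recognition particle, was at 1022 and 935 FPKM (-0.13) and RN7SL3 at 118 and 126 (0.09). The last of the 9, identical to SNORA10 and within the annotated SNORA64, both snoRNAs, was at 280 and 109 FPKM (-1.36). The 59 loci of other noncoding sources had a median of -0.18, with 12 lower and 6 higher by 2-fold. The most abundant, chr4:69242297-69242391, was at 14999 and 9414 FPKM (-0.67), and chr11:39183065-39183161 was at 6881 and 3821 (-0.85). A locus at chr1:91515156-91515286 matched GAS5, a snoRNA host transcript, at 97.6% identity, and was at 11936 and 4783 FPKM (-1.32).

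Loci with a long A or T run were nearly all lower in siPAX9. A run of at least 20 bases was found in 306 loci, of which 188 (61.4%) were 2-fold lower and 0 were 2-fold higher, with 10 above 0 and a median of -1.18. In the other 2477 loci the median was -0.36, with 427 lower and 208 higher. The pattern was graded only in part: the median was -0.34 at runs of up to 9 bases, -0.65 at 10 to 14, -0.83 at 15 to 19, -1.25 at 20 to 29, -1.73 at 30 to 39 and -1.11 at 40 or more. Among the 437 loci without a match, 31 of the 36 with such a run were 2-fold lower, beside 66 of the 401 without. Among loci with an mRNA source the shares lay closer together: 3 of 15 with such a run were 2-fold lower (20%, median -0.74), beside 17.4% of the 1857 without (median -0.41), and ribosomal protein loci had medians of -0.78 with such a run (12 loci) and -0.80 without. The 15 mRNA-matched loci with such a run were longer, with a median of 685 bases beside 130 for the 1857 and 94 for all 306. Short unnamed loci with 1 to under 100 FPKM did not have this direction: 283 of them with such a run had a median of 0.48, beside 0.39 for the 7619 without, although their median length was 681 bases, against 94 for the abundant ones.

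**Figure D5:**
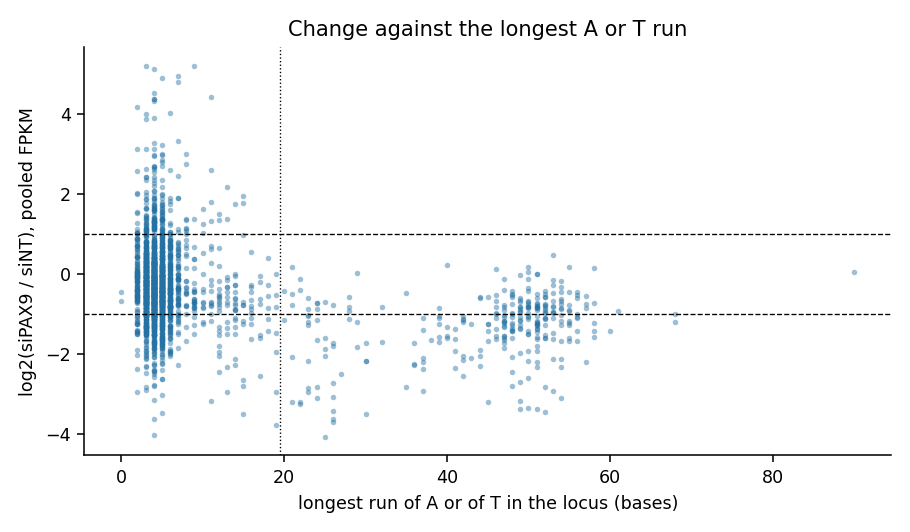
Longest uninterrupted run of A or of T in each locus in bases (horizontal axis) and change as log2(siPAX9/siNT) (vertical axis), with a dotted line before 20 bases and dashed lines at 2-fold. Right of the dotted line 0 loci lie above the upper dashed line, and the single point at 90 bases is the most abundant locus, near 0.

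The most abundant locus of all went against this direction. It is intergenic, with a longest run of 90 bases, and was at 383975 FPKM in siNT and 391764 in siPAX9 (0.03), or 8.67% and 10.1% of the summed FPKM of all rows. The next in level among loci rich in A or T runs were chrX:99283407-99283498, with a longest run of 46 in 92 bases (-1.38), and chrY:18008643-18008730, with 30 in 88 bases (-2.17).

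Repeated sequence and unmatched loci held the widest changes. The 134 loci classed as repeated sequence, for matching over 100 places, had a median of 0.69, with 62 higher and 27 lower by 2-fold. The most abundant of them, chr1:31575019-31575101, matched at least 1504 places and was at 3397 and 4558 FPKM (0.42), followed by chr6:152967876-152967954 (-1.19) and chr5:120678593-120678669 (-0.70). The search kept a limited number of matches per chromosome, so the count of places of such a repeat is a minimum. The highest change among loci above 0.01 FPKM in both groups was there, chr13:19083582-19083678 at 13.996 and 512 FPKM (5.19), and so was the lowest, chr2:232334838-232334918 in an intron of NCL, the nucleolin gene, at 1261 and 74.6 FPKM (-4.08), which carries a run of 25 bases. Next lowest after the U1 locus were chrX:92566755-92566839 (-3.80), chr4:131346318-131346401 (-3.71) and the RPS28 match.

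The loci without a match had a median of -0.33, with 97 lower and 62 higher by 2-fold. At 50% of the bases in place of 80%, 15 of the 437 matched ribosomal protein mRNAs, with a median of -0.79, and 66 other protein-coding mRNAs, with -0.45. A run of 3 neighbours on chromosome 15 was among the highest changes: chr15:56364873-56365123 was at 10.4 and 360 FPKM (5.12), chr15:56365186-56365296 at 28.1 and 831 (4.89) and chr15:56365580-56365990 at 4.21 and 153 (5.18). The locus chr8:115126694-115126857, at 3.65 and 112 FPKM (4.93), matched the Y chromosome at 93.3% identity and chr15:56366040-56366204, next to these 3, at 92.8%. The 3 neighbours also each matched the Y chromosome, at 94.8%, 96.2% and 95.4% identity in the order given. The locus chr8:30107371-30107460, at 26168 and 11188 FPKM (-1.23), lies in an annotated pseudogene. Another 2 unmatched loci of high level, chr2:133038118-133038270 (1.37) and chr12:34372592-34372699 (1.33), were higher by a similar factor as the rRNA loci, and the latter matched the rRNA scaffold over 76 of its 108 bases at 96.1% identity.

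A value below 0.01 FPKM in 1 group was found at 9 loci, for which no fold is given. Listed at 0 in siNT were 3, chrX:57823150-57823225 with 1795 FPKM in siPAX9, chr13:19361940-19362043 with 263 and chr1:183585232-183585343 with 124. Listed at 0 in siPAX9 were 6, chr18:71519-71598 with 817 FPKM in siNT, chr5:152716810-152716891 with 692, chr9:23418401-23418485 with 519, chr3:3381148-3381233 with 401, chr9:106506771-106506859 with 287 and chr16:55827311-55827414 with 176. Of these 6, 5 carry an A or T run of 25 bases or more.

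Most loci were not unique. Of 2545 loci whose places in the genome were counted, 880 matched 1 place, 1136 matched 2 to 10, 366 matched 11 to 100 and 135 over 100, at an identity of at least 90% over at least 80% of the unmasked bases, and 28 were interrupted by runs and had no full-length match. Of the 135, 134 were classed as repeated sequence, and the other had already been classed as rich in A or T runs. The 880 loci at 1 place had a median change of -0.19, with 11.5% lower and 6.02% higher by 2-fold.

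The limits of the choice ran through a continuum. Just above 100 FPKM stood chr1:54440512-54440681 (100.06 and 68.6 FPKM), chr17:41796996-41797213 (59.7 and 100.2) and chr6:63922419-63922760 (100.4 and 99.0). Just below stood chr3:90250872-90251027 (49.2 and 99.8), chr8:138709031-138709209 (99.8 and 61.1) and chr7:110165503-110165632 (6.04 and 99.5). The longest members spanned 1934, 1808 and 1772 bases and matched HSP90AA1, HNRNPC and EEF1A1, while above 2000 bases only 1 unnamed locus reached 100 FPKM, chr10:36810775-36813332 with 2558 bases, at 276 and 114 FPKM (-1.28).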

How the data were processed

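MCF10A cells were transfected with siNT or siPAX9 at 30 nM for 72 hours (3 samples each). Per the methods, poly(A)+ libraries were sequenced single-end, aligned to hg19 with Bowtie 2, which does not split reads over introns, and quantified with Cufflinks, within Partek Flow. The handling of reads with several matches is not given in the sources used here. The deposited FPKM values are 1 pooled value per group and locus, made by the authors. The table also holds the authors' fold changes, test statistics, p-values and q-values, which were not used. The table holds no values or counts per sample, so it gives neither a replicate error nor the number of fragments behind a value. The methods give read totals only as a range over the 6 samples, not for each group, and no interval was computed from it.

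Loci were compared as log2(siPAX9/siNT), called at 2-fold, with no test. No fold was taken where a group was under 0.01 FPKM. Sequences were read from GRCh37 (1-based coordinates) and searched with blastn 2.17.0 (word size 28, A or T runs of 15 bases or more masked) against 48028 transcripts of GENCODE release 44 mapped to GRCh37, the scaffold with the rRNA repeat and the mitochondrial genome. A match needed 90% identity over 80% of the unmasked bases, and the best bit score gave the source. Loci with under 40 unmasked bases, or under 60% unmasked, were classed as rich in A or T runs and given no source, and loci at over 100 genome places as repeated sequence. Annotation overlaps of at least 1 base were found with bedtools 2.31.1. Tables were handled in Python 3.11.15 with pandas 2.3.3, and the search was tested on simulated data. Of 838 source genes of mRNAs, 806 were found as named rows.

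Loci named were the 10 most abundant, the 5 lowest and the 5 highest changes. Also named were the 5 most abundant listed at 0 in 1 group and the 3 most abundant of each source. Those next to the limits of level and length were named too. Of the source genes with at least 2 loci, only some were named. RPS6, RPS9, RPS28, RPL5 and FBL were looked up. Other named loci, including the remaining loci listed at 0, the FN1 matches, pairs that differed from their source, and the choice of sequences printed, were picked after their values were seen. The members and lists were chosen with earlier results of these data known. Alternatives covered the fold, an added FPKM, centring, the level and length limits, counting of neighbours and source genes, the match limits and the overlap. Some marker values and sequences are not reported here.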

Additional observations from a re-analysis of the deposited data

How the results depend on the processing

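The share of loci lower by 2-fold, 22.1%, was 42.2% at 1.5-fold, 4.20% at 4-fold, 19.2% after centring on the median named row (a shift of -0.078), 20.3% with a level of at least 50 FPKM, 24.1% with at least 200, 13.4% with no level minimum, 24.3% with neighbours counted once and 12.7% with each source gene counted once. Among alternatives chosen after seeing the data, it was 17.2% without A or T runs of 20 bases or more and 11.5% for loci at 1 genome place. With no level minimum the median change was 0.092, beside -0.44 at 100 FPKM or more, and 25.2% of loci were 2-fold higher. The share with an mRNA source, 67.3%, was 43.2% at 95% identity and 70.3% at 50% coverage, and, chosen after seeing the data, 71.8% without masking and 70.2% without the limit on genome places. The difference of locus minus source, 0.0471, was -0.0051 at 98% identity. The pseudogene share, 67.0%, was 63.9% when at least 50% of a locus had to overlap. The cause of these shifts was not tested.

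No paired analysis was possible because the table holds 1 pooled value per group. For the same reason, leaving out each replicate in turn and the fit with a replicate block were not run. The table gives no fragment counts, so no counting error was computed for any locus.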
